A study of Mus musculus with 4 samples.

Results

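The 10 planar cell polarity genes described here are Celsr1, Celsr2, Celsr3, Vangl1, Vangl2, Prickle1, Prickle2, Fzd3, Fzd6 and Ptk7, out of 21840 protein-coding genes. The genes are a named set, and their peaks were selected on distance to a transcription start in mm10, within 1 kb for promoter peaks and within 50 kb for nearby regions. Presence of a peak and its rank within each list are the values the choice rests on, so all comparisons of them are descriptions with no test. Chromatin accessibility was measured by ATAC-seq, in which a transposase inserts sequencing adapters into open chromatin, in embryoid bodies on day 4 of differentiation from mouse embryonic stem cells of the line E14Tg2A. Embryoid bodies are cell aggregates in which stem cells leave self-renewal and form early lineages. There were 2 WT libraries and 2 CTCF-K20R libraries, in which lysine 20 of the chromatin-organising protein CTCF was replaced by arginine with CRISPR/Cas9 in the stem cells, and this is the only allele that the labels give as different. Both genotypes were grown on inactivated mouse fibroblast feeders with leukemia inhibitory factor and 2 inhibitors, and were then differentiated in hanging drops without that factor. The sources used here do not say how many clones of each genotype were used.

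Planar cell polarity is the alignment of cells within the plane of a tissue. Celsr cadherins bridge neighbouring cells, Vangl and Prickle proteins gather at the opposite side of the cell from Frizzled receptors and Dishevelled, and this asymmetry orients cell shape, cilia and movement. In the early embryo the pathway is known for convergent extension of the mesoderm and for closure of the neural tube.

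Peaks numbered 59783 and 66703 in the WT lists and 51823 and 55832 in those of K20R, and the median summit pileup at regions shared by all 4 was 38 and 56 in WT against 39 and 58 in K20R. The second replicate of each genotype thus had the taller peaks. A promoter peak in all 4 libraries was found for 6 of 6 streak and mesoderm markers, 6 of 6 pluripotency markers, 3 of 3 neuroectoderm markers and 3 of 3 endoderm markers. It was also found for 4 of 6 feeder fibroblast markers, while Col3a1 and Postn had none in any library. Promoter percentiles of the endoderm markers were between 1.77 and 97.1 and those of the fibroblast markers between 50.2 and 94.3, and all 3 endoderm markers were lower in both K20R libraries than in both WT libraries. Of the streak and mesoderm markers 4 were lower and 2 higher by rank (Eomes and Mesp1), and of the pluripotency markers 2 were lower and 3 higher. Mesp1 was lower by log2 summit pileup centred on each library's median at shared regions. Its values on that scale were 0.40 and 0.34 in WT against 0.27 and 0.31 in K20R. By pileup 5 streak and mesoderm markers were lower and 1 higher, and 2 pluripotency markers were lower and 4 higher. The shares of all genes by pileup were 14.1% and 40.8%. The part of such differences in the members' values was not tested. Shifts in cell makeup and changes within a cell type cannot be told apart in such bulk samples. The point mutation itself leaves no trace in a peak list, so the genotype labels were not checked.

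Each of the 10 members had a promoter peak in every library, as did 14480 of the 21840 genes. A promoter peak was ranked by its −log10 p among all peaks of its own list and expressed as a percentile, in which 100 is the strongest peak. The members lay between 65.3 and 93.9 on this scale. Below, lower means that both K20R values were below both WT values, and higher the reverse. On the list scale 6 members were lower (Celsr1, Celsr3, Vangl2, Fzd3, Fzd6 and Ptk7), 1 was higher (Celsr2) and 3 overlapped, against 32.2% lower and 15.7% higher among all 14480 genes. When the peaks were ranked anew among these gene promoters alone, 4 were lower (Celsr3, Fzd3, Fzd6 and Ptk7) and 1 was higher (Celsr2), against 22.9% lower and 23.8% higher, and Vangl2 then had a higher mean in K20R. By the fold of the summit over local background 3 were lower and 3 higher, against 24.5% and 14.2% of all genes. By the log2 summit pileup, centred on the median of each library at common regions, 4 were lower and 2 higher, against 14.1% and 40.8%. The median difference over all genes was 0.11 on this pileup scale, so a value just above 0 is below that of the typical gene. The lower pileup call of Prickle1 mixes its starts, as described below. Celsr3 and Ptk7 were lower and Celsr2 was higher on all 4 of these scales, and no other member was apart in the same direction on all of them.

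**Figure D1:**
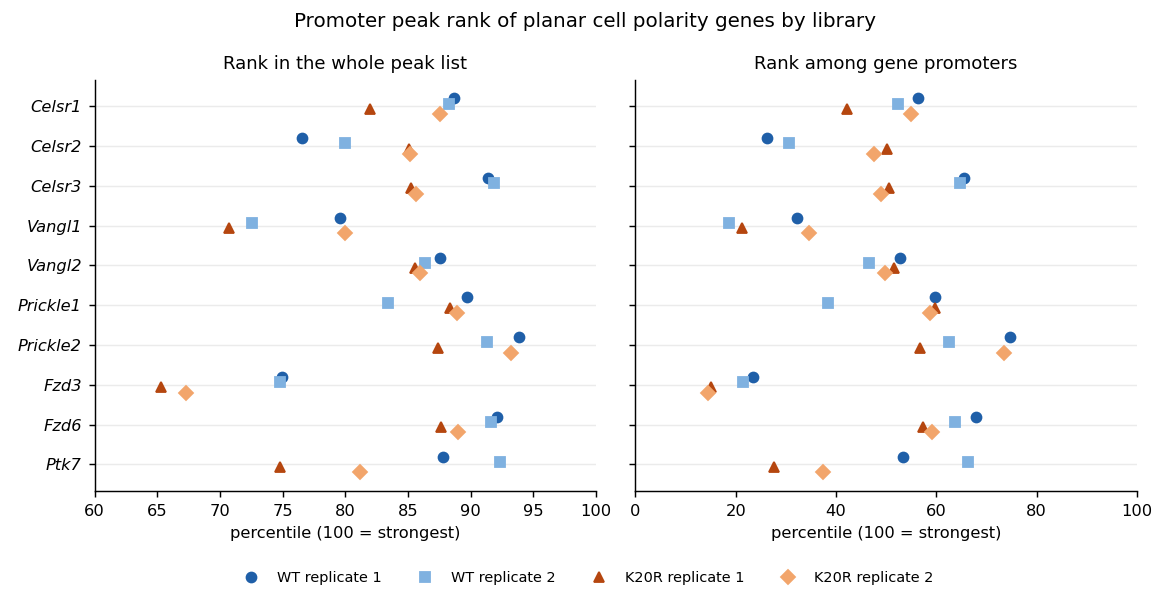
Each point is the promoter peak of a gene in a library, as a percentile among all peaks of the library's list (left, axis from 60 to 100) and among the gene promoters with a peak in every library (right, axis from 0 to 100). Blue symbols are the 2 WT and orange symbols the 2 K20R libraries, and the genotypes are apart in the same direction on both scales for Celsr2, Celsr3, Fzd3, Fzd6 and Ptk7.

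**Figure D2:**
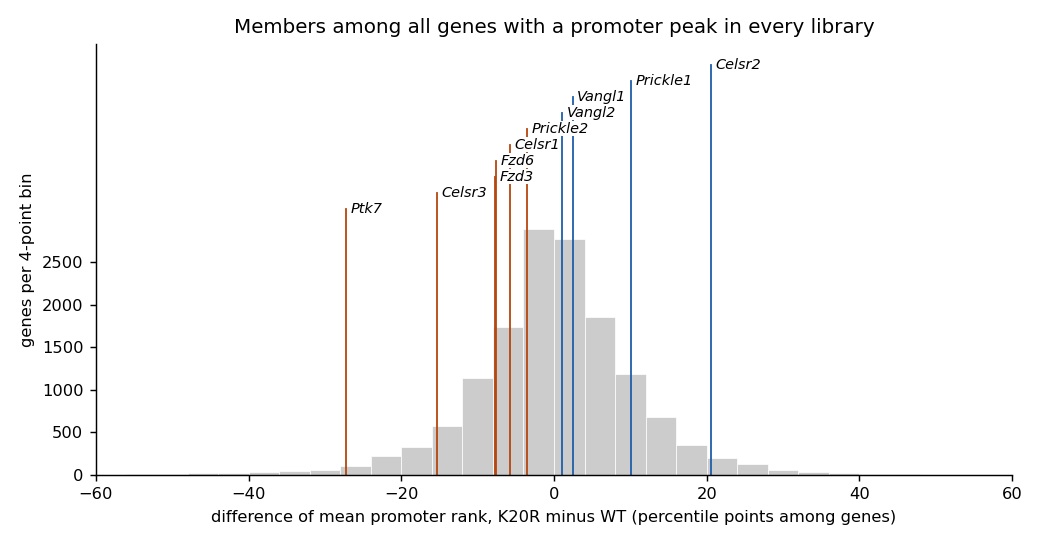
Grey bars count genes whose promoter had a peak in every library by the difference between mean K20R and mean WT percentile among gene promoters, in bins of 4 points. Vertical lines mark the 10 members, from Ptk7 at -27.3 to Celsr2 at 20.5.

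The Celsr genes encode large atypical cadherins whose extracellular parts bind each other across cell contacts. Celsr1 (chr15:85898929-86033777, minus strand) had promoter percentiles of 88.7 and 88.3 in WT against 82.0 and 87.6 in K20R. The K20R replicate 1 value stands apart and the other K20R value is within 1 point of WT, so the lower call is narrow. Its summits lay 595 to 614 bp upstream of the start in all 4 libraries. Celsr2 (chr3:108390851-108415552, minus strand) had percentiles of 76.6 and 80.0 in WT against 85.1 and 85.2 in K20R, and all 4 summits lay 473 to 506 bp upstream of the start. Among gene promoters the values were 26.2 and 30.6 in WT against 50.3 and 47.6 in K20R, a difference of 20.5 points, and 97.1% of the genes had a smaller or more negative difference. In log2 pileup the Celsr2 promoter was 0.49 higher in K20R. Celsr3 (chr9:108826320-108852969, plus strand) had percentiles of 91.4 and 91.9 in WT against 85.2 and 85.7 in K20R. Both replicates of a genotype were within 1 point of each other, and the genotypes were 6.20 points apart. The strongest summits of this broad peak were 1157 to 1371 bp upstream of the Celsr3 start, and it counts as a promoter peak because its body reaches the start.

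The 250 bases upstream of the start of Celsr2, and of Ptk7, which lie inside the promoter peaks, are shown as the pair of members with the most opposite differences (RefSeq, GRCm38.p6, the build of the lists). The promoter table matched 6 of the 10 members. Capitals mark the GC box GGGCGG, searched on both strands with CCAAT, the T-box motif (by its consensus), the TCF-LEF motifs CTTTGAA and CTTTGTT, the AP-1 motif TGANTCA, the GATA motif AGATAA and the CTCF consensus. No motif of the set was found in the Celsr2 stretch, and the only match in the Ptk7 stretch was 1 GC box, which 32.7% of the 32851 promoters of the table hold. The Celsr2 stretch had a GC content of 75.2% and 32 CpG, the Ptk7 stretch 64.0% and 14, and the median GC content of all promoters was 52.4%.
Celsr2, chr3:108415580-108415829, minus strand: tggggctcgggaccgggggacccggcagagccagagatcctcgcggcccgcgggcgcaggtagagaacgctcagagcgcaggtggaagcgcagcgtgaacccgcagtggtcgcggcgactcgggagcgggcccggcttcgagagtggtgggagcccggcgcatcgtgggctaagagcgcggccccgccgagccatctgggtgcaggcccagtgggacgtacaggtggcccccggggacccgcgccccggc
Ptk7, chr17:46629505-46629754, minus strand: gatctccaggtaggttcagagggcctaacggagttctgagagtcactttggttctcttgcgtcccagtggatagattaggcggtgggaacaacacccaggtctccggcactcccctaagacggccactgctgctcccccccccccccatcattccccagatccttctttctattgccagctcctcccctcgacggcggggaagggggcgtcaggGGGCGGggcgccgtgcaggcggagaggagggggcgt

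Vangl1 and Vangl2 encode the membrane proteins of the Van Gogh family that recruit Prickle. Vangl1 (chr3:102153583-102204693, minus strand) had promoter percentiles of 79.5 and 72.6 in WT against 70.8 and 80.0 in K20R. Its libraries interleave, and the mean difference of -0.698 points turns to 2.46 when gene promoters are ranked alone. A second and weaker peak 875 bp upstream of the Vangl1 start (chr3:102205181-102205919) had percentiles of 44.0 and 35.9 in WT against 1.58 and 6.09 in K20R. This peak was thus at the bottom of both K20R lists while the main promoter peak beside it overlapped between genotypes. Vangl2 (chr1:172000960-172028444, minus strand), mutated in the looptail mouse, which has an open neural tube, had promoter percentiles of 87.6 and 86.3 in WT against 85.6 and 85.9 in K20R. The difference of -1.20 points is small beside the other lower members. In log2 pileup Vangl2 was 0.08 higher in K20R, below the median difference of 0.11 over all genes.

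Prickle1 and Prickle2 encode cytoplasmic LIM-domain partners of Vangl. Prickle1 (chr15:93499114-93595891, minus strand) has 2 starts, and the stronger promoter peak was at the upstream start in every library except WT replicate 2. The peak at the upstream start (position 93595891) had percentiles of 89.7 and 83.0 in WT against 88.4 and 88.9 in K20R, with only WT replicate 2 apart. The peak at the downstream start (position 93519523) had 85.3 and 83.4 in WT against 77.3 and 81.5 in K20R. Because the strongest peak stands for a gene, the values given for Prickle1 as a whole mix the 2 starts. At the upstream start the log2 pileups overlapped, with 1.38 and 1.06 in WT against 1.22 and 1.34 in K20R. At the downstream start they were lower, with 1.63 and 1.52 in WT against 1.22 and 1.48 in K20R.

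Prickle2 (chr6:92370908-92706155, minus strand) has 4 annotated starts, and its main promoter peak overlapped between genotypes with 93.9 and 91.3 in WT against 87.4 and 93.2 in K20R. The start at position 92481392 overlapped too, with percentiles of 78.5 and 79.6 in WT against 71.5 and 79.0 in K20R. The peak at the start at position 92534861 (chr6:92534426-92535237) did not, with 79.6 and 80.9 in WT against 48.5 and 42.3 in K20R. Its summit pileups were 46 and 67 in WT against 22 and 25 in K20R, and as centred log2 pileups they were 0.28 and 0.26 in WT against -0.83 and -1.21 in K20R. The start at position 92567366 had no peak in any library. The starts of Prickle2 were therefore unlike each other, and the difference at the 92534861 start is not visible in the gene's strongest promoter peak. The 250 bases upstream of that start are shown because its peak did not overlap between genotypes (RefSeq, GRCm38.p6). Capitals mark 2 copies of CCAAT, 1 on each strand, a motif found in 33.8% of all promoters.
Prickle2 start at 92534861, chr6:92534862-92535111, minus strand: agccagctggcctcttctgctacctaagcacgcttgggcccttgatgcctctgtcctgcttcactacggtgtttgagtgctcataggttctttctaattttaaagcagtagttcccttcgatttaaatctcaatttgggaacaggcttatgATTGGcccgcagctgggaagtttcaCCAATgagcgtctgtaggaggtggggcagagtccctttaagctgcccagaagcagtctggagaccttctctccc

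Fzd3 and Fzd6 are the Frizzled receptors best known for planar polarity in mammals. Fzd3 (chr14:65192449-65262463, minus strand) had promoter percentiles of 75.0 and 74.8 in WT against 65.3 and 67.3 in K20R. Its summit pileup was 59 and 83 in WT against 35 and 59 in K20R, and the local background recovered for the peak was 9.69 and 12.2 in WT against 4.11 and 6.38 in K20R. The fold over that background was 5.61 and 6.35 in WT against 7.05 and 8.12 in K20R, so by fold the order of the genotypes is reversed. Fzd6 (chr15:39006034-39038188, plus strand) had percentiles of 92.1 and 91.6 in WT against 87.6 and 89.0 in K20R. Among gene promoters its difference was -7.58 points. Its log2 pileup was 0.02 higher in K20R, below the median difference of 0.11 over all genes, with the genotypes overlapping.

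Ptk7 (chr17:46564471-46629504, minus strand) encodes a receptor-like protein with an inactive kinase domain that acts with Vangl2 and Wnt receptors. Its promoter percentiles were 87.8 and 92.3 in WT against 74.8 and 81.2 in K20R, the largest difference among the members at -12.0 points. Among gene promoters the values were 53.3 and 66.3 in WT against 27.6 and 37.4 in K20R, and 1.44% of the 14480 genes had a more negative difference. The summit pileups were 107 and 173 in WT against 77 and 133 in K20R. The summit lay 540 and 552 bp upstream of the start in WT, against 177 bp upstream and 44 bp downstream in K20R, so the strongest point of the peak was nearer the start in both K20R libraries. The genes with the most similar 4 values among the other 14479, by the Euclidean distance of these percentiles, were Jmjd1c, Rbm24 and Smad3, all within a distance of 6.61.

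To see whether a promoter stood apart from its surroundings, the promoter difference in log2 pileup was set beside the median of common regions 50 kb to 1 Mb away. Over all common regions this median was 0.08, with quartiles of -0.19 and 0.31. Around Fzd3 the median of 32 common regions was -0.74, and the Fzd3 promoter at -0.67 lay within the quartiles of -0.99 and -0.54. The lower Fzd3 promoter thus moved with most of the neighbourhood on chromosome 14, and its part in the Fzd3 values was not tested. Around Ptk7 the median of 101 regions was 0.15, with quartiles of -0.099 and 0.32, while the promoter was at -0.47. Around Celsr2 the median of 70 regions was 0.14 and the upper quartile 0.29, while the promoter was at 0.49. Celsr3 at -0.17 was just under the lower quartile of -0.13 for the 70 regions around it, and the promoters of the other 6 members were within the quartiles of their surroundings.

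**Figure D3:**
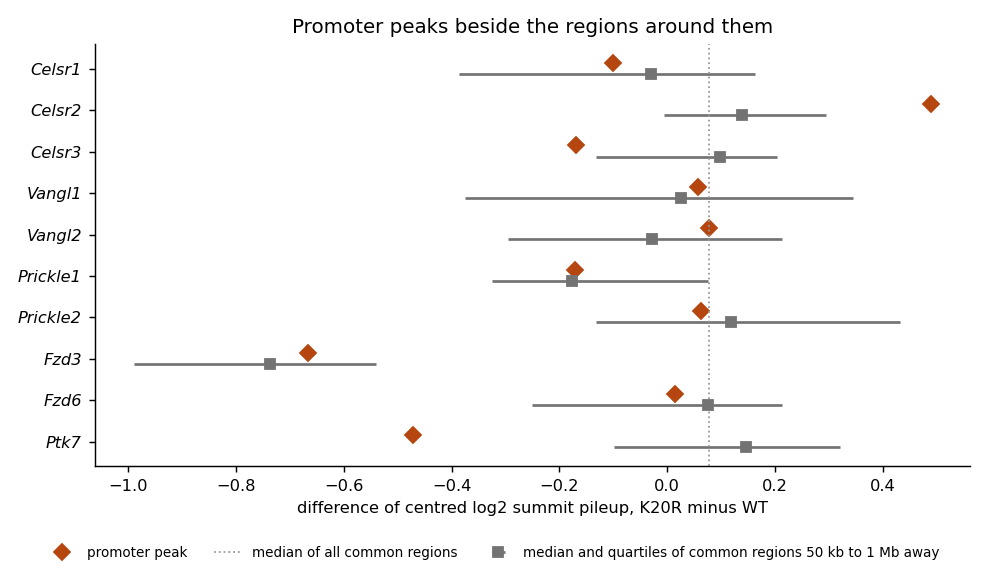
For each gene the diamond is the difference of the promoter peak between mean K20R and mean WT centred log2 pileup, and the square with its bar is the median and the quartiles of that difference over common regions 50 kb to 1 Mb away. The Fzd3 promoter (-0.67) sits inside its bar, while Ptk7 (-0.47), Celsr3 (-0.17) and Celsr2 (0.49) sit outside theirs. The Prickle1 diamond mixes peaks at different starts of that gene.

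Within 50 kb of a start of the members lay 110 of the 80380 merged regions, 14 of them within 1 kb. Of the 110 regions 58 (52.7%) had a peak in all 4 libraries, against 47.9% of all regions. A peak in both WT and no K20R library, called WT-restricted below, was found in 19 (17.3%), against 10.4% of all regions. The reverse, K20R-restricted, was found in 3 (2.73%), against 3.10%. Another 30 had some other combination. At least 1 WT-restricted region was near 9 members, all except Ptk7, against 33.8% of all genes, and at least 1 K20R-restricted region near 3 members, against 15.6%. These shares of genes take no account of the number of regions near a gene, which for the members was between 4 regions (Fzd3 and Fzd6) and 19 (Prickle1). Just inside the 50 kb limit were a Celsr3 region 48775 bp away, found only in K20R replicate 1 at 24.7, and a Vangl2 region 46930 bp away, found only in WT replicate 1 at 41.8. Just outside it were a Ptk7 region 50400 bp away, found only in WT replicate 2 at 31.7, and a Celsr2 region 50484 bp away with 52.5 and 54.7 in WT and 7.77 in K20R replicate 2. At the 1 kb limit, the outermost promoter region was the Vangl1 peak whose edge is 488 bp from a start, and the nearest outside it were Prickle1 regions 1300 and 1359 bp away.

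**Figure D4:**
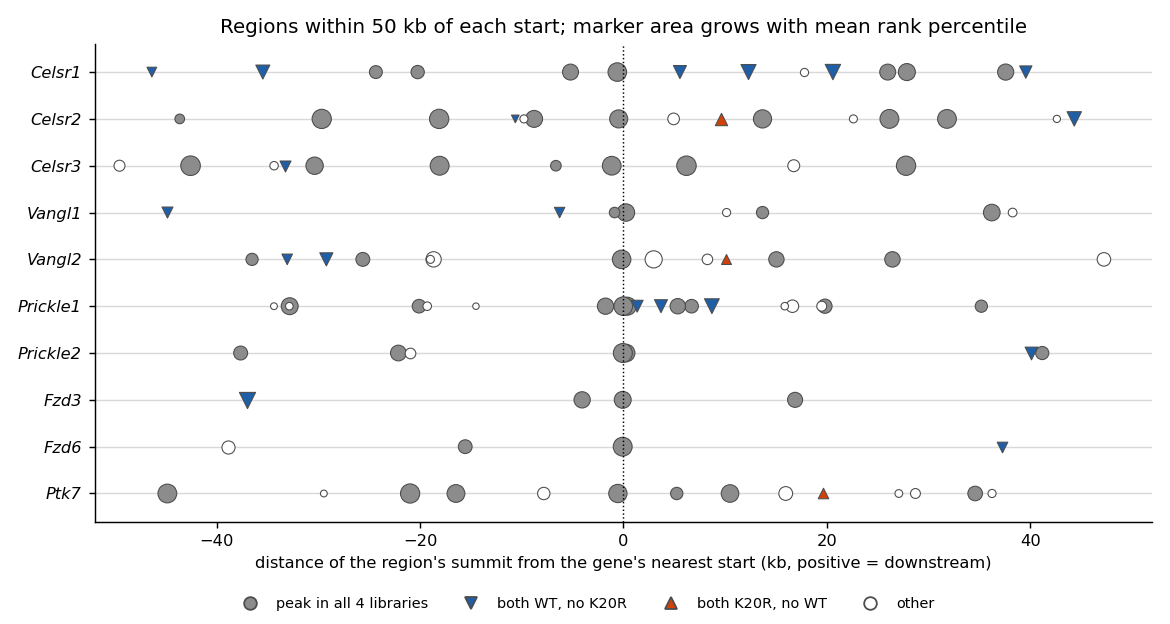
Each marker is a region within 50 kb of a member's start, placed by the distance of its strongest summit from the nearest start of that gene in kb, with negative values upstream. Grey circles have a peak in all 4 libraries, blue triangles in both WT only and orange triangles in both K20R only. Marker area grows with the mean percentile, and Celsr1 holds 6 of the 19 WT-restricted regions.

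Celsr1 had the most WT-restricted regions of the members, 6 of its 14. Across all genes, 0.0641% had 6 or more within 50 kb, a cut set by the count of Celsr1 itself. That share takes no account of the number of regions near a gene. Of the 6 WT-restricted regions 4 lay in introns of Celsr1 and 2 in introns of the neighbouring gene Gramd4. The strongest was 20587 bp inside Celsr1 with percentiles of 47.0 and 66.8 in WT, followed by the region 12290 bp inside with 55.3 and 53.7. The regions 5549 bp inside (43.1 and 34.0), 39550 bp inside (37.4 and 28.9) and 35456 bp upstream in Gramd4 (46.1 and 45.5) were of middle rank. The strongest Celsr1 region shared by all libraries away from the promoter, 27858 bp inside the gene, had 86.0 and 83.9 in WT against 56.1 and 60.6 in K20R. The other 2 common intronic regions of Celsr1 overlapped between genotypes, with 65.4 and 55.5 in WT against 62.4 and 70.8 in K20R at 37572 bp inside the gene and 66.1 and 60.7 in WT against 50.2 and 69.2 in K20R at 25974 bp. Ranked anew among common regions, the first of these was higher. The intronic regions of Celsr1 were thus not alike. Because each list skips numbers of called peaks and holds between 50.5% and 60.8% of them, a region without a peak may still have had a called one. For the 2 Gramd4 regions no number was missing there in either K20R list, and for the 4 Celsr1 regions between 1 and 3 numbers were missing over the pair of lists. The 201 bases around the summits of the 2 strongest Celsr1 regions are shown as the places whose peaks were found in WT libraries alone (mm10, plus strand), with a GATA match in capitals.
Celsr1 intron, chr15:86013090-86013290: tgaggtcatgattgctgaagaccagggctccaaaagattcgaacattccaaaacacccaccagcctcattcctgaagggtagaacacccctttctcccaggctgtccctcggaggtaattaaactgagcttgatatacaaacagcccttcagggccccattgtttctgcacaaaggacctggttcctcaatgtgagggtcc
Celsr1 intron, chr15:86021387-86021587: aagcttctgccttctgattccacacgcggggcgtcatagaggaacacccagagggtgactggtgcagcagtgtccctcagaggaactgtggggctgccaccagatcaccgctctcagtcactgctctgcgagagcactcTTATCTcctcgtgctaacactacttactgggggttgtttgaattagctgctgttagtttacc

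The WT-restricted region with the highest mean percentile near any member was 36977 bp upstream of Fzd3, in an intron of Fbxo16, with 51.1 and 76.8 in WT and no missing peak number in either K20R list. Prickle1 had 3 WT-restricted regions in its introns, of which the strongest was 8690 bp inside the downstream start with 56.7 and 47.7, also with no number missing, and another was 3685 bp inside the upstream start with 33.5 and 42.1. A region 44314 bp downstream of the Celsr2 start, in an intron of Mybphl, had 41.0 and 56.2. The promoter of the neuronal factor gene Nhlh1, 29211 bp upstream of Vangl2, had 46.7 and 31.4. A region in an intron of Prickle2, 40013 bp inside the gene, had 34.7 and 37.8. The nearest start belonged to the member for 11 of the 19 WT-restricted regions, and 8 were inside the member gene. The summit window of the Fzd3 region is shown because it carries the strongest of these peaks, with matches to the GATA motif and the GC box in capitals.
Fbxo16 intron upstream of Fzd3, chr14:65299340-65299540, plus strand: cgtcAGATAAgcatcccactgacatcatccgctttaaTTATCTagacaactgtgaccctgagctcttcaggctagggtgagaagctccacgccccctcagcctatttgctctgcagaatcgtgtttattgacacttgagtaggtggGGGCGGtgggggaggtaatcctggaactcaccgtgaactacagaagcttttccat

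All 3 K20R-restricted regions were in introns of the member itself. The region in Celsr2, 9538 bp inside the gene, had percentiles of 16.9 and 49.6 in K20R, and no number was missing in either WT list. The other two, chosen for mention after their values were seen, were in Vangl2 (17.0 and 19.9) and Ptk7 (12.9 and 30.5) and were weak in both libraries. Leaving out 1 library gave 4 such regions without WT replicate 1, 6 without WT replicate 2 or K20R replicate 2, and 8 without K20R replicate 1. Over all regions the K20R-restricted share was 4.45%, 7.46%, 6.86% and 7.99% without WT replicate 1, WT replicate 2, K20R replicate 2 and K20R replicate 1, so it rose as well.

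Among the 58 regions with a peak in all 4 libraries, 31 (53.4%) were lower and 4 (6.90%) higher on the list scale, against 34.8% and 18.6% of the 38527 common regions of the genome. Ranked anew among common regions, 23 (39.7%) were lower and 10 (17.2%) higher, against 25.5% and 29.2%. Of the 44 that were more than 1 kb from a member's start, 17 (38.6%) were lower and 9 (20.5%) higher on this second scale. The genome shares of 25.5% and 29.2% include promoters, and no share was computed for distal common regions alone. These regions share libraries and neighbourhoods and are not independent of each other.

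The deepest difference was in an intron of Prickle1 (chr15:93539449-93541110), between its starts and 20100 bp upstream of the downstream start. The percentiles were 76.6 and 76.2 in WT against 12.3 and 4.99 in K20R, and the summit pileups 58 and 82 in WT against 13 and 11 in K20R. Farther inside the downstream start, the regions at 6695 bp (66.7 and 61.5 in WT, 12.4 and 28.8 in K20R) and 5336 bp (70.9 and 73.1 in WT, 34.2 and 49.7 in K20R) were lower as well. The region 1768 bp upstream of the same start was not, with 61.8 and 60.2 in WT against 66.1 and 70.7 in K20R, and neither was the strongest distal region of Prickle1, 32814 bp upstream, with 67.7 and 79.3 in WT against 67.6 and 68.3 in K20R. The lower Prickle1 regions were thus interspersed with regions that were not lower. The summit window of the deepest difference is shown with its matches to the TCF-LEF, CCAAT and GATA motifs in capitals.
Prickle1 intron, chr15:93539523-93539723, plus strand: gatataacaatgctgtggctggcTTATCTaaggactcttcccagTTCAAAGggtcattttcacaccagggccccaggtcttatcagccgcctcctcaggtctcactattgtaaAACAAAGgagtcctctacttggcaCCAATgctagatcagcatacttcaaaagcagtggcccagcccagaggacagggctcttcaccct

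The opposite pattern was clearest 15559 bp upstream of Fzd6 (chr15:38989894-38991455), which was also the only distal region of Fzd6 shared by all libraries. Its percentiles were 21.6 and 24.1 in WT against 69.5 and 59.8 in K20R, and the summit pileups 12 and 15 in WT against 35 and 37 in K20R. The region overlaps the annotated processed pseudogene Gm4740, so all 177 words of 25 bases in the window around the summit are in that annotation. Of the 177 words, 55 (31.1%) are also in a transcript of Atad3a, a mitochondrial ATPase gene elsewhere in the genome. How reads of the like copies were divided between them was not tested, so these values are uncertain. No motif of the set was found in the window, which is shown for its partial likeness to a spliced transcript of Atad3a.
Upstream of Fzd6, chr15:38990375-38990575, plus strand: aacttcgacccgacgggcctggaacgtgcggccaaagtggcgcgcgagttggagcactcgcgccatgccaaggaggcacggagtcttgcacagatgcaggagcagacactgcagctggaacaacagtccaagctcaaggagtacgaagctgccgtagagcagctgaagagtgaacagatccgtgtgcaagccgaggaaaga

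All 3 common regions of Fzd3 were lower in K20R by rank and by pileup, and the promoter alone was higher by fold. The intronic region 16868 bp inside the gene had 76.5 and 82.7 in WT against 20.4 and 36.4 in K20R. The promoter of Fbxo16, 4065 bp upstream of Fzd3 and its strongest distal region, had 86.7 and 88.8 in WT against 39.5 and 43.8 in K20R. These differences are larger than that of the Fzd3 promoter, in a neighbourhood where the upper quartile of the log2 pileup difference was -0.54. In Ptk7 the region 5234 bp inside the gene had 51.9 and 51.0 in WT against 23.8 and 6.08 in K20R, and the region 10472 bp inside had 82.5 and 83.4 in WT against 75.2 and 68.0 in K20R. Both are next to the promoter peak that was lower. The strongest distal region of Ptk7, at the promoter of Cul7, had 97.8 and 94.9 in WT against 92.3 and 90.8 in K20R.

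The strongest distal regions of the other members were in promoters, introns or intergenic sequence. For Celsr2 this was an intron of Sars, with 93.5 and 95.2 in WT against 94.1 and 97.4 in K20R. For Celsr3 it was the promoter of Ip6k2, with 98.5 and 98.3 in WT against 95.9 and 97.7 in K20R. In Vangl1 a region 36205 bp inside the gene was lower, with 71.9 and 81.5 in WT against 57.7 and 62.0 in K20R. In Vangl2 a region at the end of the gene had 64.1 and 59.8 in WT against 48.8 and 56.5 in K20R, and 22131 bp upstream of Prickle2 a region overlapped with 62.3 and 60.6 in WT against 52.5 and 64.1 in K20R.

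**Figure D5:**
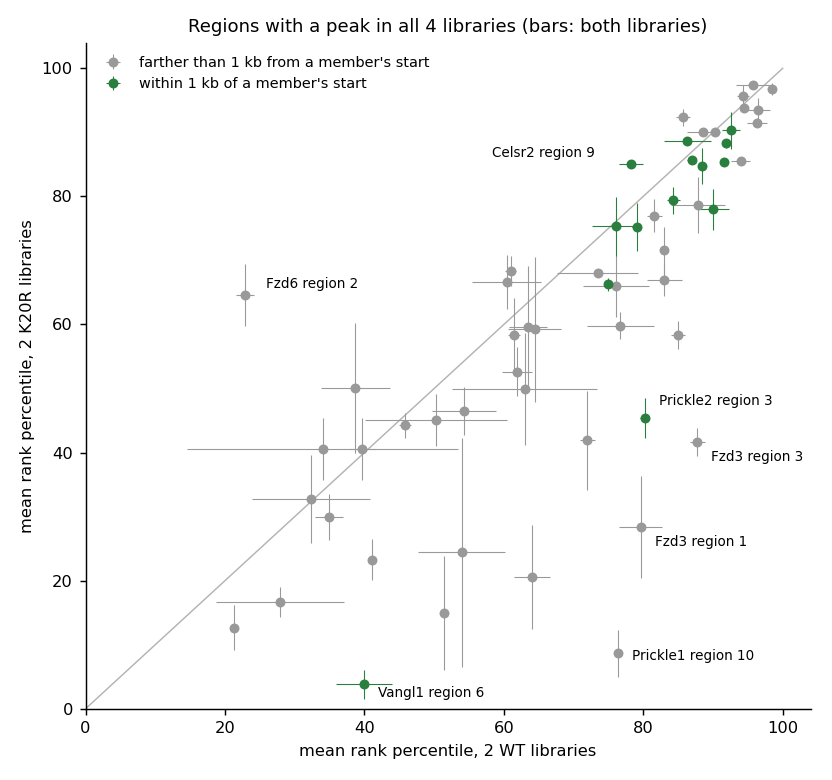
Each point is a region near a member with a peak in all 4 libraries, at its mean percentile in the 2 WT libraries (horizontal) and the 2 K20R libraries (vertical), with bars that end at the values of both libraries. Green points are within 1 kb of a member's start and the line marks equal means. Regions carry numbers along the chromosome for each gene, so that Celsr2 region 9 is its promoter, Prickle2 region 3 the start at 92534861 and Vangl1 region 6 the weak upstream peak. The intronic Prickle1 region 10 lies far below the line, at 76.6 and 76.2 in WT against 12.3 and 4.99 in K20R, and Fzd6 region 2 far above it.

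CTCF is the protein mutated in these cells, so the windows of 100 bp on each side of a region's strongest summit were scanned for the CTCF consensus. It was found in 4 of the 110 member regions (3.64%), against 5.97% of all regions, and in none of the 14 within 1 kb of a start or the 19 WT-restricted ones. Among all WT-restricted regions of the genome 2.58% held it. The 4 are shown with the match in capitals (mm10, plus strand). A match is a sequence of letters and says nothing of binding in these cells.
Celsr2 downstream end, chr3:108389312-108389512: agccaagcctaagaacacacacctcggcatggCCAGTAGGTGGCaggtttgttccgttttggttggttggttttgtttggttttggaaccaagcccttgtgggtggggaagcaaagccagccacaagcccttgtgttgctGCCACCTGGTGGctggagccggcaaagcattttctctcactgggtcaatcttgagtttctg
Celsr2 intron, chr3:108401786-108401986: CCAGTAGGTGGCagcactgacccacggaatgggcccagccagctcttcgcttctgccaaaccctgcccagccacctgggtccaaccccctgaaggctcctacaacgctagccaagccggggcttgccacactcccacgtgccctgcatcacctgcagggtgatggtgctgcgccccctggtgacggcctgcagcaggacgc
Prickle1 intron, chr15:93502814-93503014: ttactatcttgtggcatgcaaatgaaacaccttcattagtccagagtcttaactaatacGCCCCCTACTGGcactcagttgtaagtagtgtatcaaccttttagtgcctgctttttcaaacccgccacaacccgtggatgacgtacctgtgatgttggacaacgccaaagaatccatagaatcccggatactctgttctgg
Upstream of Vangl2, chr1:172047012-172047212: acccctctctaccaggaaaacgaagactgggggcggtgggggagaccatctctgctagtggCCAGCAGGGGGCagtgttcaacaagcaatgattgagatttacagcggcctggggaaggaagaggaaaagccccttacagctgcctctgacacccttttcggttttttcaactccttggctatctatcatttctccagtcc

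The 4 regions with a CTCF match did not behave alike. The region past the end of Celsr2, which holds 2 matches, had 92.6 and 95.4 in WT against 85.8 and 85.5 in K20R. The region in the intron of Celsr2 had 84.0 and 91.7 in WT against 74.3 and 83.0 in K20R, so both were lower by rank while the promoter of the same gene was higher, and by log2 pileup the intronic region overlapped. The region in the intron of Prickle1 had no peak in WT replicate 1, 0.768 in WT replicate 2 and 48.1 and 54.7 in K20R. The region upstream of Vangl2 had a peak in WT replicate 2 alone, at 56.3. Shares of the other motifs in the 110 regions were 10.0% for TCF-LEF against 9.12% of all regions, 20.9% for the GC box against 20.0%, 19.1% for CCAAT against 23.5%, 7.27% for AP-1 against 7.07% and 7.27% for GATA against 7.81%. The T-box motif was in none of the 110 regions, against 1.25% of all regions.

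Another 38 genes of the pathway and its outputs were taken from a fixed list of ligands, receptors, Dishevelled, ciliary effectors, basolateral polarity genes and cytoskeletal effectors. Of these, 37 had a promoter peak in all 4 libraries and Prickle4 had none. On the list scale 16 (43.2%) were lower, 7 (18.9%) higher and 14 overlapped, against the 32.2% and 15.7% of all genes. Ranked anew among gene promoters, 13 (35.1%) were lower and 8 (21.6%) higher, against 22.9% and 23.8%. The median difference of the 37 genes was -2.34 points on the list scale, that of the 10 members -2.90 and that of all genes -0.824.

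The largest lower differences were those of Wnt11, Prickle3 and Ror2. Wnt11, a ligand that guides convergent extension, had percentiles of 69.8 and 58.3 in WT against 47.9 and 53.4 in K20R. Prickle3, the third Prickle with a peak, had 79.5 and 79.4 in WT against 66.4 and 65.8 in K20R, with replicates within 1 point. Ror2, a receptor for Wnt5a, had 80.0 and 83.3 in WT against 66.2 and 77.5 in K20R. The largest higher differences were those of Rsg1, a gene of the ciliary effector complex, with 61.0 and 58.1 in WT against 69.2 and 64.0 in K20R, Sec24b, which exports Vangl2 from the endoplasmic reticulum, with 81.2 and 88.6 in WT against 91.7 and 91.6 in K20R, and Smurf1, a ubiquitin ligase for Prickle1, with 88.6 and 91.9 in WT against 93.1 and 92.8 in K20R. Wnt11 and Prickle3, both at -13.4 points, were farther from 0 than Ptk7 at -12.0.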

How the data were processed

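ATAC-seq peak lists of 4 libraries were used, 2 WT and 2 K20R, grouped by their labels. Per the study's methods and the submitters' processing notes, reads were trimmed with Trim Galore and aligned to mm10 with Bowtie2, low-quality, duplicate and blacklisted reads were removed, and peaks were called with MACS2, here with 1 list per library. The authors' score is a whole number that follows the p of the summit. As deposited, the ratio is the fold of the summit pileup over its local background, and the authors give −log10 p and −log10 q of the summit. No read counts were used here, and read depth is unknown. The precision of a value rests on 2 libraries per genotype, described as biological replicates by the study.

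The members and the lists were chosen with earlier results of these data known, and no test was made. Starts came from protein-coding transcripts of GENCODE vM21 (basic set), and a promoter peak had any base within 1000 bp of a start, the strongest being used. Regions were peaks merged where they shared at least 1 bp. The summit pileup was recovered from the deposited fold and p, giving whole numbers (tolerance 0.05) for 100% of peaks in each list after rounding to 3 digits. The code of the calls was run on simulated independent values with a large known shift, which it was bound to find. Part of the rows without a shift were called lower or higher too, so a call alone is no sign of a difference. Named items were all members, the 12 restricted regions with the highest mean percentile, each member's strongest distal common region, up to 3 lower and 3 higher pathway genes with the largest differences, and the 3 genes most like the member that differed most. Other common regions near Celsr1, Prickle1, Fzd3 and Ptk7, with the deepest Prickle1 difference among them, were named outside this rule after their values were seen. Rsg1 is listed under its annotation name for Cplane2. Python 3.11.15, pandas 2.3.3, numpy 2.4.6 and bedtools 2.31.1 were used. Alternatives were another ranking, fold, pileup, equal list lengths, other distances and start sets, a stricter q, a stricter overlap, the replicate block and leaving out each library.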

Additional observations from a re-analysis of the deposited data

How the results depend on the processing

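No tests were made, so the alternatives bear on counts. The 6 lower member promoters became 3 by fold, against 24.5% of all genes. They were between 4 and 6 under the other rankings, start sets and an equal number of peaks, against between 14.1% and 32.0%. Without 1 library there were between 6 and 8 lower and between 1 and 2 higher, with 2 without WT replicate 1 or K20R replicate 1, while the shares of all genes rose to between 42.3% and 50.0% lower and between 25% and 31.0% higher. The 1 higher member became 3 by fold and 2 by pileup, against 14.2% and 40.8% of all genes. Of the 37 pathway promoters, the 16 lower were 10 by fold and 9 by pileup, against 24.5% and 14.1% of all genes. Between 18 and 23 were lower when a library was left out, against between 42.3% and 50.0%. The 7 higher became 13 by pileup, against 40.8% of all genes. Without 1 library they were between 8 and 12, against between 25% and 31.0%. There were 12 higher without WT replicate 1 and 11 without WT replicate 2. The 19 WT-restricted regions were 5 within 10000 bp, where there are 37 regions in all, and between 21 and 25 without 1 library, while the share of all regions rose from 10.4% to between 12.6% and 20.7%. At a −log10 q of at least 5 they were 16 of 86, against 9.32% of all regions. With equal numbers of peaks they were 14 of 102, against 8.04%. The 3 K20R-restricted regions were 1 of 86 at a −log10 q of at least 5, against 3.08% of all regions. With equal numbers of peaks there were 5 of 102, against 6.29%. Without 1 library there were between 4 and 8, against between 4.45% and 7.99%. A region needs fewer libraries to count when a library is left out. Without K20R replicate 1 the count was 8, and without WT replicate 2 or K20R replicate 2 it was 6. Of single members, Vangl2 changed sign among gene promoters (1.09 points), by pileup (0.0775 on the log2 scale) and with equal numbers of peaks (1.18). Fzd3 changed sign by fold (12.4 points) and Fzd6 by pileup (0.0151). Both pileup values lay below the median of 0.111 over all genes, so by pileup neither gene rose beside other promoters. The cause of the changes of sign was not tested. Of 99 values for single members, 80 stayed within the replicate spread or kept their direction, 14 moved and 5 turned. For members called lower or higher, leaving out 1 library could not move or turn a value, so those values were bound to stay. For the other members it could only move a value through a change of sign. Celsr3 had no summit within 1000 bp of its start, so it has no value under that rule. Leaving out Fzd3, an alternative chosen after seeing the data, left 5 of 9 members lower and 1 higher. The labels do not tie same-numbered libraries to a shared batch, and over 14480 genes their deviations correlated at r = 0.0393 in gene rank and 0.103 in log2 pileup. With the replicate block, both same-numbered pairs had to agree in sign. Then 6 members were lower and 1 higher, and 20 and 8 of the 37 pathway genes, against 41.3% and 21.7% of all genes. This rule is looser than the main one, under which these shares were 32.2% and 15.7%. For the restricted regions the block rule is the same as the main one, so their counts of 19 and 3 could not change. With 2 libraries per genotype and no read counts, regions near the lower limit of the lists are the least certain.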
